A study of Mus musculus with 16 samples.

Results

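The genes described are the m6A writers and erasers, 10 genes taken by symbol from the count tables: *Mettl3* and *Mettl14* of the catalytic core, the 5 accessory subunits *Wtap*, *Zc3h13*, *Rbm15*, *Rbm15b* and *Cbll1*, the separate methyltransferase *Mettl16*, and the erasers *Fto* and *Alkbh5*. All 10 were listed in both the RNA-seq table of 15386 genes and the m6A table of 13490 genes, and all 10 passed the filter on low counts in each, which left 11979 and 11447 genes to test.

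Bone marrow erythroid progenitors at the CFU-E stage, the colony-forming unit that precedes the proerythroblast, were sorted from adult mice of both sexes on a C57BL/6 background. For RNA-seq, 3 libraries of CFU-E from control mice and 3 libraries of CFU-E Kit-lo cells from *Mettl3* fl/fl *EpoR* Cre/- mice were made by Smart-seq2, which primes cDNA from the poly(A) tail. For m6A, 2 libraries of RNA pulled down with an m6A antibody (IP) and 2 of the RNA before pulldown (input) were made from control CFU-E only, by the SLIM-seq protocol, which reads the 3′ end of each transcript. The alleles of the control mice, and whether they carried the Cre, are not given in the sources used here. No m6A library of *Mettl3*-deficient cells was analysed here, so every IP value refers to control cells. The Cre in this line, *EpoR-tdTomato-Cre*, is driven by the erythropoietin receptor gene, which is also active in macrophages of erythroblastic islands and in part in hematopoietic stem cells. The *Mettl3*-deficient cells were sorted for low Kit and the controls were not, so the genotype and the Kit gate cannot be told apart in any RNA-seq comparison below.

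m6A is a methyl group on the N6 position of adenosine, the commonest internal mark of messenger RNA. It is placed in the nucleus by a complex in which Mettl3 holds the catalytic site and Mettl14 helps to bind the RNA. Wtap, Zc3h13, Rbm15, Rbm15b and Cbll1, together with Virma, form the regulatory part of the complex, of which Rbm15 and Rbm15b bind RNA directly. Mettl16 works apart from this complex on U6 small nuclear RNA and on the messenger RNA of *Mat2a*. Fto and Alkbh5 are the oxygenases that take the mark off again. In blood formation the complex is known for its work in stem cells and in leukemia, and *Rbm15* also as part of a fusion gene in megakaryoblastic leukemia. Marks placed by the Mettl3 complex gather around stop codons, in a short consensus whose commonest form is GGACT.

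The GGACT sites nearest the stop codon are shown first, since the IP libraries asked which of these transcripts were pulled down by the m6A antibody. The letters GGACT were searched on the transcript strand only, within 250 bases on either side of the stop codon of 1 annotated transcript a gene (GENCODE, GRCm38, the same assembly as mm10). A site was present in 6 of the 10 genes, and in 44.9% of the 11419 tested genes that had a coding transcript. Each line gives the 29 bases around the site nearest the stop, with GGACT in capitals.
*Wtap*, chr17:12967488-12967516, minus strand: tcagaatggcttGGACTcaaatgtaaatg
*Alkbh5*, chr11:60554421-60554449, plus strand: tgtgccctcttgGGACTctggctaatcct
*Mettl3*, chr14:52294906-52294934, minus strand: cacaccttaagaGGACTgtttacgcaata
*Mettl14*, chr3:123369251-123369279, minus strand: accccaccccagGGACTggcagttgtcac
*Fto*, chr8:91666290-91666318, plus strand: cccgagtcgtccGGACTttaccagtacag
*Zc3h13*, chr14:75339421-75339449, plus strand: atgtttcagacgGGACTctgcaatccgga

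Counted from the first base of the stop codon, the site started at position 20 in *Alkbh5*, 62 in *Mettl3* and 121 in *Mettl14*, all 3 in the 3′ untranslated region. It started at -34 in *Wtap*, -131 in *Fto* and -208 in *Zc3h13*, all 3 in the coding sequence. No GGACT was found in this window of *Rbm15*, *Rbm15b*, *Cbll1* or *Mettl16*. Over the whole transcript the letters occurred from 2 times, in *Rbm15*, to 14 times, in *Mettl16*, with 10 in *Alkbh5*, 7 in *Zc3h13*, 6 in *Rbm15b*, 5 each in *Wtap* and *Cbll1*, 4 in *Mettl3* and 3 each in *Mettl14* and *Fto*. Per kilobase the range was 0.461 in *Rbm15* to 2.43 in *Wtap*, with *Mettl3* at 1.975 and *Alkbh5* at 1.75, beside a median of 1.03 over the tested genes. Genes called higher in IP, as described below, held the letters near the stop in 40.6% of 901 genes. These are matches of letters and not measured sites of methylation.

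The RNA-seq libraries held 17429262 to 21329242 estimated counts each and the m6A libraries 19421059 to 37142742. Among the 10 genes the lowest estimated count was 286 in RNA-seq and 95 in m6A, both for *Rbm15b*. *Kit*, the gene of the receptor used for the sort, was at 544, 629 and 622 CPM in controls but at 68.5, 53.1 and 44.0 CPM in Kit-lo libraries. The parts of the gate and of the genotype in this fall cannot be told apart. CPM here is the count scaled to the size of its library, after TMM scaling. Of 9 late erythroid markers 6 were called higher in Kit-lo, beside 12.1% of all tested genes. The summed level of the 9 was 1144 to 1262 CPM in controls and 4081 to 5894 CPM in Kit-lo libraries. The 8 listed macrophage markers of 9 summed to 19.2 to 21.9 CPM in controls and 6.70 to 12.4 CPM in Kit-lo. The largest part was *Cd163*, at a mean of 13.5 CPM in controls and 6.36 CPM in Kit-lo. *Adgre1* was at 0 in all 3 Kit-lo libraries, but at only 2 estimated counts in each control, and was not tested. Of the 5 macrophage markers tested, 2 were called lower and 0 higher, beside 9.83% and 12.1% of all tested genes, and 1 had a positive log2 fold. In controls and Kit-lo, the 8 listed granulocyte markers of 9 summed to 25.5 to 39.0 and 14.03 to 22.6 CPM. The 4 listed megakaryocyte markers of 6 summed to 11.8 to 13.4 and 7.93 to 19.3 CPM, and the 5 listed lymphocyte markers of 6 to 2.86 to 3.26 and 2.44 to 3.02 CPM. Of 9 erythroid progenitor markers, 8 were tested, of which 2 were called higher and 4 lower, beside 12.1% and 9.83% of all tested genes. The 4 lower were *Kit*, *Gata2*, *Myb* and *Slc22a3*, at log2 folds of -3.44, -3.93, -2.83 and -5.60. The 2 higher, *Klf1* and *Epor*, were both at 0.59. The 9 summed to 3269 to 3363 CPM in controls and 3033 to 3171 CPM in Kit-lo. Between input and IP the summed levels were lower in IP without overlap for the 9 progenitor markers (2913 to 3521 and 2159 to 2603 CPM), 8 late erythroid markers (491 to 644 and 405 to 449 CPM), 8 granulocyte markers (6.44 to 8.99 and 4.05 to 5.73 CPM) and 5 megakaryocyte markers (10.8 to 11.2 and 7.94 to 8.85 CPM). They overlapped for 5 macrophage markers, at 8.04 to 8.77 and 6.48 to 8.39 CPM, and for 5 lymphocyte markers, at 4.01 to 5.34 and 3.96 to 4.32 CPM. Input and IP were both RNA of control CFU-E, before and after pulldown, so their sums do not compare numbers of cells. Between control and Kit-lo libraries, fewer cells of a type and less RNA per cell cannot be told apart in bulk RNA. The part of these marker shifts in the changes below was not tested.

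The targeted gene was examined first. *Mettl3* (chr14:52294841-52305128, minus strand) had 115, 123 and 130 CPM in control libraries 1 to 3, and the libraries labelled *Mettl3*-deficient had 117, 127 and 108. The groups overlapped, at 123 ± 7.43 CPM for controls and 117 ± 9.52 CPM for cells of the *Mettl3*-deficient label (SD, n = 3 each). The log2 fold was -0.07, with a 95% interval of -0.28 to 0.15 and an adjusted p of 0.634 (edgeR quasi-likelihood test, Benjamini-Hochberg over all tested genes). The gene-level *Mettl3* count therefore did not separate the libraries by their genotype label. The paper, by contrast, reports *Mettl3* mRNA (by qRT-PCR) and protein (by Western blot) as absent from erythroid cells of this line. The deposited values are 1 number a gene, with no count per exon, so the floxed part of the gene was not measured on its own. On the reference, 18.4% of the exonic bases of *Mettl3* are shared with *Tox4* on the opposite strand, and whether counting used strand is not given in the sources used here. *Tox4* itself was at 161 ± 6.39 CPM in controls and 170 ± 16.1 CPM in Kit-lo libraries.

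In the RNA-seq libraries of control CFU-E, the writers and erasers differed widely in level. Divided by the length of the annotated transcript, the control level was highest for *Mettl3* at 60.6 ± 3.67 CPM per kilobase, followed by *Alkbh5* at 39.5 ± 2.24 and *Fto* at 25.9 ± 3.33 (SD, n = 3). *Mettl14* at 22.6, *Zc3h13* at 20.1, *Cbll1* at 16.4 and *Mettl16* at 14.8 CPM per kilobase came next. Among these genes, the control libraries of each neighbouring pair from *Fto* down to *Mettl16* overlapped, so this stretch of the order did not exceed the spread between libraries. The 3 lowest were *Wtap* at 10.97 ± 1.71, *Rbm15* at 5.84 ± 0.507 and *Rbm15b* at 4.55 ± 0.397 CPM per kilobase, each below the range of the gene above it. Which transcript was used is not known from gene counts. With the length of all annotated exons instead, *Alkbh5* came first and *Mettl3* second, while *Fto* moved from place 3 to place 7. *Wtap*, *Rbm15* and *Rbm15b* remained the lowest 3 but in another order, with *Rbm15b* at place 8, *Wtap* at 9 and *Rbm15* at 10. The m6A input libraries of control CFU-E, which read 3′ ends and were not divided by length, gave a different order. There the mean was highest for *Wtap* at 100 CPM (n = 2). *Zc3h13* was at 77.9, *Rbm15* at 66.6, *Mettl3* at 39.0 and *Alkbh5* at 35.3 CPM, and *Rbm15b* was lowest at 5.36 CPM. Why the orders differ was not tested.

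Between Kit-lo and control libraries, 2 of the 10 genes were called higher and 1 was called lower, both *Wtap* and *Rbm15* being accessory subunits and *Mettl14* the partner of Mettl3 in the core. A gene was called at a fold of at least 1.5 with an adjusted p under 0.05 (edgeR quasi-likelihood test, Benjamini-Hochberg). By this rule 12.1% of all tested genes were higher and 9.83% lower, so 2 and 1 of 10 were close to the background. At an unadjusted p under 0.05, 5 of the 10 were higher and 2 lower, beside 22.0% and 21.5% of all tested genes. The median log2 fold was 0.24 over the 10 genes and 0.01 over all tested genes. The control and Kit-lo libraries did not overlap for 6 of the 10 genes, beside 47.5% of all tested genes.

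**Figure D1:**
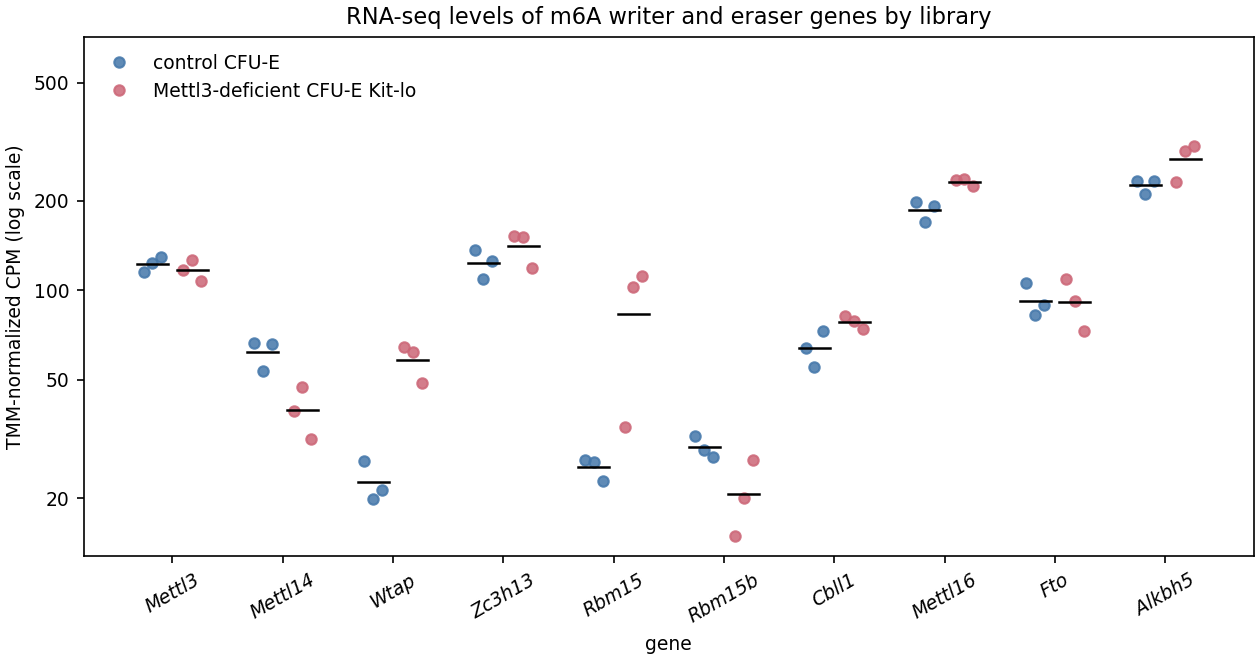
TMM-normalized CPM of each gene on a log scale in the 3 control CFU-E libraries (blue) and the 3 Kit-lo libraries of the Mettl3-deficient label (red), with each group's mean as a bar. Wtap rose from 22.6 to 58.3 CPM, Rbm15 spread from 34.8 to 112 CPM among the Kit-lo libraries, and Mettl3 overlapped between the groups.

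*Mettl14* (chr3:123368297-123386108, minus strand) was at 66.3, 53.7 and 65.8 CPM in controls and at 39.4, 47.2 and 31.7 CPM in the Kit-lo libraries. Every Kit-lo library was below every control. The mean fell from 61.9 ± 7.13 to 39.5 ± 7.77 CPM (SD, n = 3 each), and the log2 fold of -0.65 ± 0.16 (SE) had an adjusted p of 0.00988 in edgeR after Benjamini-Hochberg adjustment. The fall was close to the required fold: without the third Kit-lo library the log2 fold was -0.50 and the call was lost, while the adjusted p by edgeR with Benjamini-Hochberg adjustment was 0.0187 there. Over the 14 alternatives the adjusted p ranged from 4.59e-04, in DESeq2, to 0.0492, in edgeR.

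*Wtap* (chr17:12966796-12994169, minus strand), whose protein anchors the core to the regulatory subunits, was at 26.6, 19.9 and 21.3 CPM in controls and at 64.3, 62.0 and 48.6 CPM in Kit-lo libraries. The lowest Kit-lo library was well above the highest control. *Wtap* rose 2.58-fold, from 22.6 ± 3.52 to 58.3 ± 8.45 CPM (SD, n = 3 each). The log2 fold was 1.37 ± 0.16 (SE), with an adjusted p of 1.43e-04 in edgeR after Benjamini-Hochberg adjustment, and it lay at the 95.2 percentile of all tested genes. It was called in all 14 alternatives.

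*Rbm15* (chr3:107325421-107333673, minus strand), one of the RNA-binding subunits, was at 26.8, 26.5 and 22.8 CPM in controls and at 34.8, 103 and 112 CPM in Kit-lo libraries. Kit-lo libraries 2 and 3 were alike and far above the controls, while Kit-lo library 1 exceeded the highest control only slightly. The log2 fold of 1.71 ± 0.35 (SE) was the largest of the 10 genes, with a 95% interval of 0.94 to 2.49 and an adjusted p of 0.00387 (edgeR, Benjamini-Hochberg). It was 2.08 without Kit-lo library 1 and 1.44 at the lowest when another library was left out, and it was called in all 14 alternatives.

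*Rbm15b*, a close relative of *Rbm15* with the same kind of role, moved the other way without passing the test. It was at 32.5, 28.9 and 27.4 CPM in controls and at 14.9, 20.0 and 26.9 CPM in Kit-lo libraries. The third Kit-lo library came within 1 CPM of the lowest control. The log2 fold was -0.53, with a 95% interval of -0.98 to -0.07 and an adjusted p of 0.0734 (edgeR, Benjamini-Hochberg). Without the third Kit-lo library it was called lower, at -0.75 with an adjusted p of 0.00752 by edgeR with Benjamini-Hochberg adjustment, beside a range of 0.00752 to 0.206 over the 14 alternatives. The difference between the changes of *Rbm15* and *Rbm15b* was not tested.

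The other accessory subunits did not pass the test. *Zc3h13*, a zinc finger protein that keeps the complex in the nucleus, was at 137, 110 and 126 CPM in controls and at 152, 151 and 119 CPM in Kit-lo libraries, which overlapped. Its log2 fold was 0.18, with a 95% interval of -0.09 to 0.45. *Cbll1*, the gene of the subunit also called Hakai, was at 64.0, 55.2 and 72.8 CPM in controls and at 81.8, 79.0 and 73.8 CPM in Kit-lo libraries. These groups did not overlap, but the lowest Kit-lo library was only about 1 CPM above the highest control, and the log2 fold of 0.29 had an adjusted p of 0.087 (edgeR, Benjamini-Hochberg). On the reference, 17.6% of the exonic bases of *Cbll1* are shared with an antisense gene.

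*Mettl16*, the methyltransferase outside the complex, was at 199, 170 and 192 CPM in controls and at 235, 238 and 224 CPM in Kit-lo libraries. All 3 Kit-lo libraries were higher, but the change was small. The mean went from 187 ± 15.1 to 232 ± 7.45 CPM (SD, n = 3 each), and the log2 fold of 0.32 had an adjusted p of 0.0164 (edgeR, Benjamini-Hochberg), so it passed on p and stayed under the required fold. On p alone, 17.6% of all tested genes were higher.

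Neither eraser was called between Kit-lo and control cells. *Fto* was at 106, 82.7 and 89.0 CPM in controls and at 109, 92.1 and 72.9 CPM in Kit-lo libraries. The 2 groups covered nearly the same range, and the log2 fold of -0.02 had a 95% interval of -0.35 to 0.32. *Alkbh5* (chr11:60536381-60558512, plus strand), the most abundant of the 10 by mean RNA-seq CPM, was at 234, 212 and 234 CPM in controls and at 231, 295 and 307 CPM in Kit-lo libraries. Kit-lo library 1 lay among the controls and the other two lay above them. The log2 fold was 0.29, with a 95% interval of 0.05 to 0.54 and an adjusted p of 0.0639 by edgeR with Benjamini-Hochberg adjustment.

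To set the subunits against each other without any scaling between libraries, 3 ratios of estimated counts were taken within each library. For *Mettl14* to *Mettl3* the ratio was 0.577, 0.435 and 0.507 in controls and 0.337, 0.373 and 0.295 in Kit-lo libraries. For *Wtap* to *Mettl3* it was 0.231, 0.161 and 0.164 in controls and 0.549, 0.489 and 0.452 in Kit-lo libraries. Neither ratio overlapped between the groups. *Mettl14* thus moved down and *Wtap* up relative to the gene-level *Mettl3* count, which does not measure the floxed part, by -0.59 and 1.44 on the log2 scale. Each of these 2 differences gave p = 0.1 in a two-sided exact permutation test, the smallest p that 3 against 3 libraries allow, and 0.15 after Benjamini-Hochberg adjustment over the 3 ratios. A p under 0.05 could not be reached by this design.

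The 2 erasers kept overlapping ratios. *Alkbh5* to *Fto* was 2.21, 2.56 and 2.63 in controls and 2.12, 3.20 and 4.21 in Kit-lo libraries. The Kit-lo libraries ranged from below the lowest control to above the highest. The difference was 0.31 on the log2 scale, with p = 0.4 in the two-sided exact permutation test and 0.4 after Benjamini-Hochberg adjustment. It was 0.58 without Kit-lo library 1 and 0.08 without Kit-lo library 3.

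**Figure D2:**
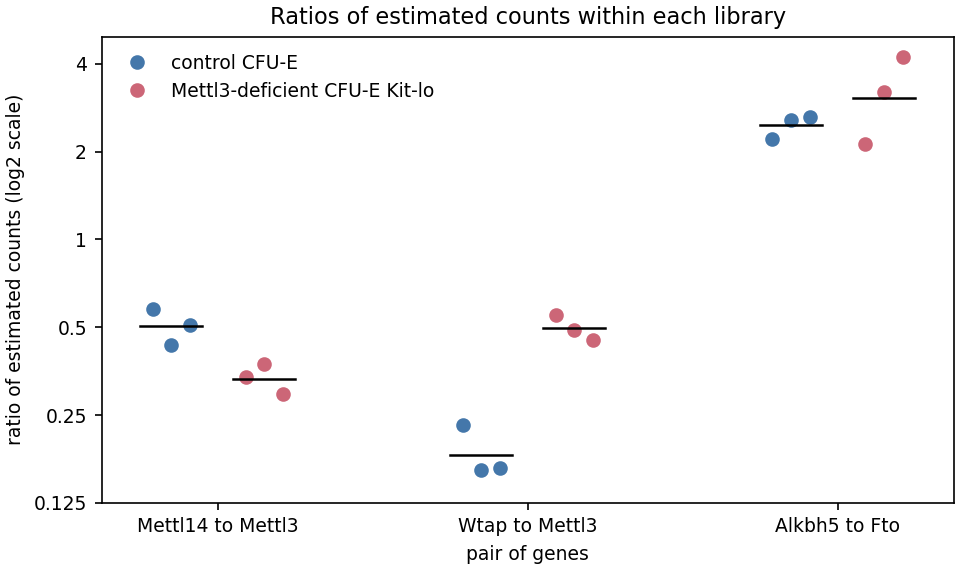
Ratio of the estimated counts of 2 genes within each RNA-seq library, on a log2 axis, for control CFU-E (blue) and Mettl3-deficient CFU-E Kit-lo (red), with bars at the geometric means. The Mettl14 to Mettl3 and Wtap to Mettl3 ratios do not overlap between the groups, and the Alkbh5 to Fto ratio does.

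The m6A libraries asked which of these transcripts were richer in the antibody pulldown than in the input. In control CFU-E, 3 of the 10 genes were called higher in IP, the accessory subunits *Rbm15* and *Wtap* and the eraser *Alkbh5*, and 0 were called lower. A call here was an adjusted p under 0.05 (edgeR quasi-likelihood test, Benjamini-Hochberg), which 7.90% of all tested genes reached as higher and 7.86% as lower. At an unadjusted p under 0.05, 4 of the 10 were higher and 1 lower, *Zc3h13*, which DESeq2 called, beside 17.2% and 14.8% of all tested genes. The IP and input libraries did not overlap for 7 of the 10 genes, beside 60.9% of all tested genes. The median log2 ratio of IP to input was 0.44 over the 10 genes and 0.06 over all tested genes.

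These ratios are relative to the other transcripts of a library and are not a share of methylated molecules. Among calls over all genes, 50.1% were higher in IP with TMM scaling, but 60.6% with library totals alone and 65.8% with upper-quartile scaling, which moved the median of all genes up by 0.16 and 0.13 on the log2 scale. With these scalings 3 and 4 of the 10 genes were called higher.

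*Rbm15* stood at 34.6 and 98.6 CPM in the 2 input libraries and at 310 and 288 CPM in the 2 IP libraries. Both IP libraries were high and close together, while the inputs differed from each other by nearly as large a factor as the higher one did from the IP. The log2 ratio was 2.17 ± 0.40 (SE), with a 95% interval of 1.28 to 3.05 and an adjusted p of 0.00532 (edgeR, Benjamini-Hochberg), at the 98.9 percentile of all tested genes. Its size rested on the inputs, at 1.57 without input library 1 and 3.10 without input library 2. *Rbm15* was called in all 12 alternatives.

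*Alkbh5* stood at 26.5 and 44.0 CPM in input and at 114 and 108 CPM in IP. Both IP libraries were more than 60 CPM above the higher input. The log2 ratio was 1.66 ± 0.27 (SE), with an adjusted p of 0.00276 (edgeR, Benjamini-Hochberg), and it was called in all 12 alternatives.

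*Wtap* stood at 71.3 and 129 CPM in input and at 221 and 192 CPM in IP. The groups did not overlap, but the input libraries differed by a factor close to that between the groups. The log2 ratio of 1.04 ± 0.28 (SE) had an adjusted p of 0.0334 (edgeR, Benjamini-Hochberg). The call was lost without input library 1, at 0.65 with an adjusted p of 0.317, and without IP library 1, at 0.92 with 0.0872 (edgeR, Benjamini-Hochberg, range 8.66e-04 to 0.317 over 12 alternatives). In each of the 3 genes called higher, input library 2 held more than input library 1, and the part of that difference in the ratios was not tested.

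**Figure D3:**
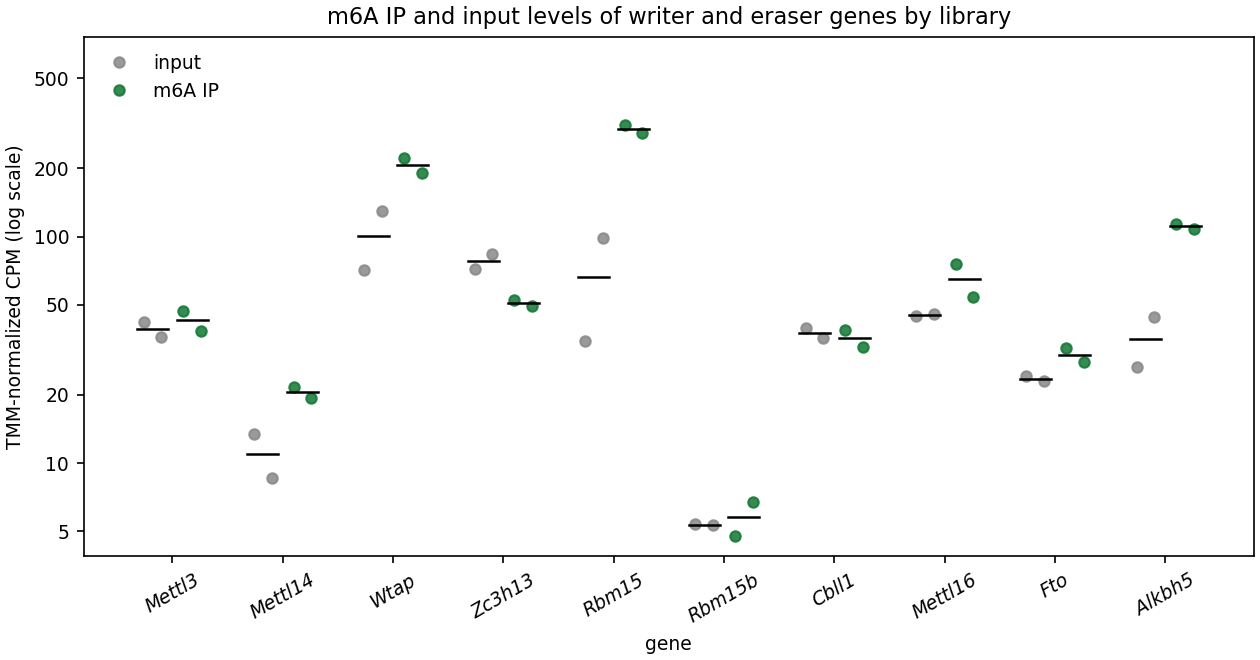
TMM-normalized CPM of each gene on a log scale in the 2 input libraries (grey) and the 2 m6A IP libraries (green) of control CFU-E, with each group's mean as a bar. Rbm15, Wtap and Alkbh5 stand higher in IP, with inputs that lie far apart for Rbm15, at 34.6 and 98.6 CPM.

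The catalytic core was not called in the pulldown. *Mettl3* was at 42.0 and 36.1 CPM in input and at 46.9 and 38.5 CPM in IP, which overlapped, and its log2 ratio of 0.13 had a 95% interval of -0.40 to 0.66. *Mettl14* was at 13.4 and 8.60 CPM in input and at 21.7 and 19.4 CPM in IP. Both IP libraries of *Mettl14* were above both inputs, but the log2 ratio of 0.90 had an adjusted p of 0.06 (edgeR, Benjamini-Hochberg). DESeq2, with an adjusted p of 0.0371, and upper-quartile scaling called it.

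*Zc3h13* was the member furthest in the opposite direction, at 71.6 and 84.1 CPM in input and at 52.6 and 49.3 CPM in IP. Both IP libraries were below both inputs. The log2 ratio of -0.61 had an adjusted p of 0.0852 in edgeR with Benjamini-Hochberg adjustment and 0.0464 in DESeq2. *Mettl16* was at 44.8 and 45.4 CPM in input and at 75.6 and 54.4 CPM in IP, a log2 ratio of 0.53 with a 95% interval of -0.01 to 1.06. *Fto* was at 24.2 and 23.1 CPM in input and at 32.3 and 27.9 CPM in IP, a log2 ratio of 0.35 with a 95% interval of -0.18 to 0.88. For both genes the IP libraries lay above the inputs by less than the test requires. *Rbm15b*, the least abundant at 4.80 to 6.73 CPM in all 4 libraries, and *Cbll1*, at 32.7 to 39.4 CPM, overlapped between IP and input.

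**Figure D4:**
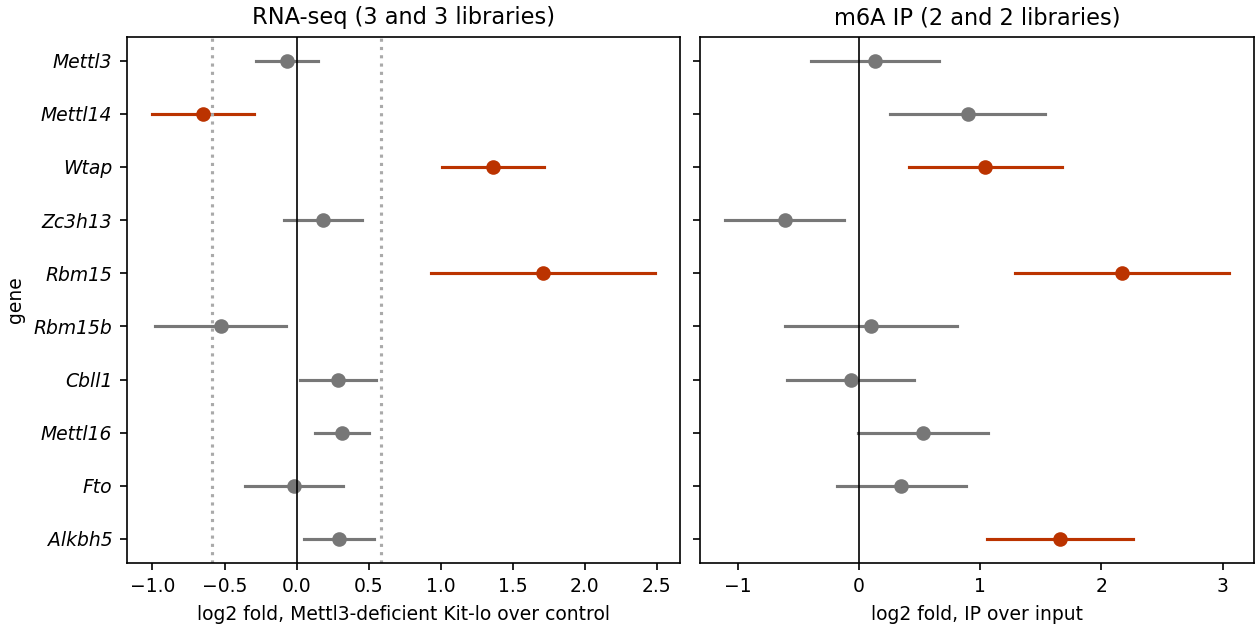
Log2 fold of each gene with its 95% interval, for Mettl3-deficient Kit-lo over control in RNA-seq (left, dotted lines at a 1.5-fold change) and for IP over input in control CFU-E (right). Called genes are red, namely Mettl14, Wtap and Rbm15 on the left and Wtap, Rbm15 and Alkbh5 on the right.

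Set side by side, *Wtap* and *Rbm15* were called higher in both comparisons, which share no library. By the edgeR tests above, *Alkbh5* was called in the pulldown and not between cell groups, and *Mettl14* between cell groups and not in the pulldown, where DESeq2 and upper-quartile scaling did call it. These contrasts were not tested against each other. Over the 10773 genes tested in both tables, 89 were higher in both. They made up 6.69% of the 1331 genes higher in Kit-lo and 10.3% of the 864 higher in IP, beside 8.02% and 12.4% of all these genes. The pair of shared calls is a description of these genes and not a test of a link between the measurements.

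The remaining proteins of the m6A system were counted for comparison. Of 5 further genes of methyltransferases and their partner proteins, 0 were called higher in Kit-lo and 1 lower by edgeR, beside 12.1% and 9.83% of all tested genes. The gene called lower was *Trmt112*, the activating partner of several methyltransferases, which went from 18.7 ± 1.28 to 11.3 ± 0.688 CPM (log2 fold -0.72). *Virma*, the scaffold of the regulatory part of the complex, is named here after its values were seen. It went from 97.6 ± 10.8 to 139 ± 5.89 CPM (SD, n = 3 each), and its log2 fold of 0.51 had an adjusted p of 0.0035 by edgeR with Benjamini-Hochberg adjustment, under the required fold. In IP none of these 5 was called in edgeR or DESeq2, and 1 was higher at an unadjusted p under 0.05, beside the 17.2% of all tested genes. Of 5 readers, which bind the mark through a YTH domain, 2 were called higher in Kit-lo, beside 12.1% of all tested genes. They were *Ythdf2* at a log2 fold of 1.18 and *Ythdf1* at 0.59, the latter in 8 of 14 alternatives only. In IP 2 other readers were called lower, beside 7.86% of all tested genes. They were *Ythdc2* at a log2 ratio of -1.56 and *Ythdc1* at -1.005, the latter in 9 of 12 alternatives.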

How the data were processed

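RNA-seq of control and *Mettl3*-deficient Kit-lo CFU-E (3 libraries each) and m6A IP and input of control CFU-E (2 libraries each) were analysed. The 6 proerythroblast samples were not analysed here. The authors deposited estimated counts per gene, whole numbers with no normalization, made with fastp 0.23.4, kallisto 0.48.0 and tximport on mm10 per the methods. The submitters' processing notes list both mm10 and GRCm39. Whether molecular identifiers of the m6A libraries or strand were used in counting is not given in the sources used here.

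Each table was fitted on its own with edgeR 4.0.16 (R 4.3.3): filterByExpr, TMM scaling, quasi-likelihood F-tests and Benjamini-Hochberg adjustment over all tested genes. Calls needed an adjusted p under 0.05, and for RNA-seq also a fold of 1.5. A log2 fold is the coefficient of that fit. The SE was derived from the F statistic and intervals are 95%. The biological coefficient of variation was 19.1% in RNA-seq and 21.9% in m6A. Ratios added 0.5 to each count and were compared by exact permutation. DESeq2 1.42.0, other scalings, filters and thresholds, a replicate block and leaving out each library were alternatives. The scripts were tested on simulated data. Every member is named with its values, and of each other gene list the counts and the called genes. The members and lists were chosen with earlier results of these data known. Nothing shows that libraries came from separate animals, so p-values measure the spread between libraries. Transcript lengths, overlaps and sequences came from GENCODE M21 (GRCm38), 1 transcript a gene.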

Additional observations from a re-analysis of the deposited data

How the results depend on the processing

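Between Kit-lo and control, 142 of 150 member values in the alternatives kept their direction and side of the threshold, and for IP over input 117 of 130. In each total, the change of threshold alone adds a value for each of the 10 members from the main fit. The direction of these could not change. Members called in neither the main fit nor the alternative also count as kept. With the replicate block, 5 members were higher in IP (*Mettl14*, log2 ratio 0.92, and *Mettl16*, 0.51, were added) and 1 was lower (*Zc3h13*, -0.61); DESeq2 also called 1 lower. The block raised the calls over all genes in IP from 1804 to 3538. The shared replicate numbers were not shown to mark pairs. Same-numbered libraries deviated together at 0.03, -0.02 and -0.07 in RNA-seq and at 0.21 in m6A. With 2 libraries a group, both m6A numbers give the same value by construction, so it cannot show whether they mark pairs. For the ratios the block leaves the differences at -0.59, 1.44 and 0.31 by construction, and exact sign flips within the numbers gave p = 0.25, 0.25 and 0.5, where 0.25 is the smallest that 3 pairs allow.

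Leaving out 1 library, members called higher in IP numbered 2 to 3, and calls over all genes in IP 591 to 2326, lowest without input library 1. The 3 ratio differences ranged from -0.70 to -0.49 for *Mettl14* to *Mettl3*, 1.35 to 1.605 for *Wtap* to *Mettl3* and 0.08 to 0.58 for *Alkbh5* to *Fto*. Signs turned for members near 0, with the cause not tested. In Kit-lo, the log2 fold ranged from -0.12 to 0.0027 for *Mettl3* and from -0.17 to 0.14 for *Fto* when 1 library was left out, and was 0.039 for *Fto* with library totals alone. In IP it ranged from -0.038 to 0.26 for *Mettl3*, from -0.16 to 0.31 for *Rbm15b* and from -0.21 to 0.045 for *Cbll1* when 1 library was left out, and *Cbll1* was at 0.095 with library totals alone and 0.059 with upper-quartile scaling.

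With 2 libraries a side in m6A, 5 of the 10 members had intervals of IP over input that spanned 0, and leaving out 1 leaves a lone library that is assumed to vary like the other group.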

Other observations

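The methyl donor cycle supplies S-adenosylmethionine to the writers and clears its product. Of its 7 genes, 0 were called higher in Kit-lo cells and 1 was called lower by edgeR, beside 12.1% and 9.83% of all tested genes. Of the 7, 6 had negative log2 folds, with a median of -0.20 beside 0.01 over all genes. At an unadjusted p under 0.05, 0 were higher and 5 lower, beside 22.0% and 21.5% of all tested genes. *Mtr*, methionine synthase, was at 122, 139 and 127 CPM in controls and at 48.6, 58.3 and 63.1 CPM in Kit-lo libraries. All 3 Kit-lo libraries were far below the lowest control. The log2 fold was -1.19 ± 0.12 (SE), with an adjusted p of 4.87e-05 (edgeR, Benjamini-Hochberg), and it was called in all 14 alternatives. *Mat2a*, the S-adenosylmethionine synthetase gene whose messenger RNA Mettl16 modifies, was at 281 ± 18.3 CPM in controls and 264 ± 14.2 CPM in Kit-lo (SD, n = 3 each), with a log2 fold of -0.09. None of the 7 was called in IP by edgeR or DESeq2, and 2 were higher at an unadjusted p under 0.05, beside 17.2% of all tested genes.

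Of 7 other genes of the AlkB family, to which Fto and Alkbh5 belong, 1 was called higher in Kit-lo and 0 lower by edgeR, beside 12.1% and 9.83% of all tested genes. At an unadjusted p under 0.05, 3 were higher and 0 lower, beside 22.0% and 21.5% of all tested genes. *Alkbh4* went from 34.8 ± 1.24 to 57.2 ± 5.12 CPM, a log2 fold of 0.72 with an adjusted p of 0.001 (edgeR, Benjamini-Hochberg). In IP *Alkbh4* was the gene of the 7 called lower, beside 7.86% of all tested genes. It was at 36.9 and 33.0 CPM in input and 17.7 and 16.8 CPM in IP. Its log2 ratio was -1.02, called in 10 of 12 alternatives and opposite in sign to that of *Alkbh5*, and the difference between them was not tested.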
